A study of Mus musculus with 18 samples.

Results

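The genes described here are the mouse cytochrome P450 genes of families 1 to 4, whose enzymes oxidise drugs, other foreign compounds, fatty acids and steroids. They were taken as every protein-coding gene of the count table whose symbol is Cyp, a family digit of 1 to 4, a subfamily letter and a number, which gave 75 of 53379 genes in 21 subfamilies. Another 6 protein-coding genes with a further letter in their symbol, Cyp2ab1, Cyp3a41a, Cyp3a41b, Cyp4a12a, Cyp4a12b and Cyp4a30b, lie outside that rule, as do 22 pseudogenes and antisense genes. Families 7, 8, 27 and 39 were not included.

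The 18 RNA-seq libraries came from female BALB/cJ mice, an inbred strain, aged 6 to 8 weeks. Recipients of the BMT group received a lethal dose of irradiation, 10000000 bone marrow cells and 1000000 T cells. Recipients of the BM group received the same irradiation and marrow without T cells, so that no group was left unirradiated. The sources used here do not give the donor strain. Tissue was collected on day 7 as bulk liver and as isolated epithelium of both parts of the intestine, with 3 BMT and 3 BM libraries per tissue. Library descriptions carry 6 numbers that recur in each tissue and are read here as mouse numbers, but nothing states that replicates are separate animals. The p-values therefore measure only how far these samples spread. For the intestine, the sample titles and the library codes disagree: libraries coded SI are titled large intestine and libraries coded LI are titled small intestine, and the codes are used below.

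A P450 enzyme holds a haem group, takes electrons from P450 oxidoreductase (Por) and inserts an oxygen atom into its substrate, the first step by which many drugs and toxins are made soluble. Most of these enzymes are made in hepatocytes, many of them around the central vein, and a smaller set is made in intestinal epithelium. Families 1, 2 and 3 are known as targets of the xenobiotic receptors Ahr (for Cyp1a), Nr1i3, also called Car (for Cyp2b and Cyp2c), and Nr1i2, also called Pxr (for Cyp3a), while the fatty acid hydroxylases of Cyp4a are targets of Ppara. In mice several Cyp2 and Cyp3a genes of the liver are known to differ between males and females.

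Library depth ran from 18845483 to 25610937 counts, and 3 counts in a library, the floor used here, correspond to 0.117 to 0.159 CPM, where CPM is the count divided by the library total and scaled to 1000000. Mitochondrial transcripts took 2.77 to 3.08% of counts in BMT livers and 4.22 to 5.26% in BM livers, 4.83 to 6.01% in BMT and 7.30 to 8.63% in BM libraries of code SI, and 6.24 to 7.46% in BMT and 9.72 to 10.7% in BM libraries of code LI. With the mitochondrial genes left out, each tissue had the same number of P450 genes called in either direction as given below. Region markers went with the codes and against the titles. Hoxb13, a transcription factor gene of the hindgut, was at 0 in each library of code SI. In code LI it was at 41.9, 110.0 and 164 CPM in BMT and 139.6, 170.1 and 166 CPM in BM libraries. Sis, the small-intestinal sucrase-isomaltase, averaged 1979 CPM in BMT and 954 CPM in BM libraries of code SI against 0.983 and 2.37 CPM in BMT and BM libraries of code LI. Summed over 8 T cell markers, the level was 46.4 to 48.9 CPM in BMT and 2.96 to 5.13 CPM in BM livers, 126 to 192 and 1.72 to 5.77 CPM in code SI, and 238 to 387 and 2.04 to 2.34 CPM in code LI.

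The liver used most of the family and each epithelium a small part of it. Over the 6 libraries of a tissue, 53 of 75 genes averaged at least 1 CPM in liver, 21 in code SI and 25 in code LI, and 27, 4 and 4 genes averaged at least 100 CPM. No count was seen in any of the 6 libraries for 6 genes in liver, 10 in code SI and 21 in code LI. Together the 75 genes took 1.42%, 1.24% and 1.06% of counts in BMT livers, against 3.23%, 2.84% and 1.98% in BM livers. Each BMT liver lay below each BM liver, and the mean was 2.16-fold lower. The same sum was 0.155%, 0.0953% and 0.11% of counts in BMT code LI libraries, against 0.383%, 0.351% and 0.346% in BM code LI libraries. The groups again did not overlap, and the mean was 3-fold lower. Much of that difference lay in 1 gene, Cyp2c55. Without it the other 74 genes summed to 784, 793 and 877 CPM in BMT code LI libraries, against 1137, 1213 and 1135 CPM in BM code LI libraries, 1.42-fold lower. In code SI it was 0.164%, 0.169% and 0.202% of counts in BMT code SI libraries, against 0.161%, 0.146% and 0.149% in BM code SI libraries. There the BMT libraries lay above the BM libraries, with a ratio of 1.17. That order was lost without 1 gene, Cyp4f14, the only gene left out of this sum. Without it the other 74 genes summed to 599.9, 779 and 855 CPM in BMT code SI libraries, against 1081, 982 and 900.0 CPM in BM code SI libraries, 1.33-fold lower. Both sums with 1 gene left out were chosen after the data were seen. In bulk tissue, fewer cells of a type and less RNA per cell cannot be told apart.

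**Figure D1:**
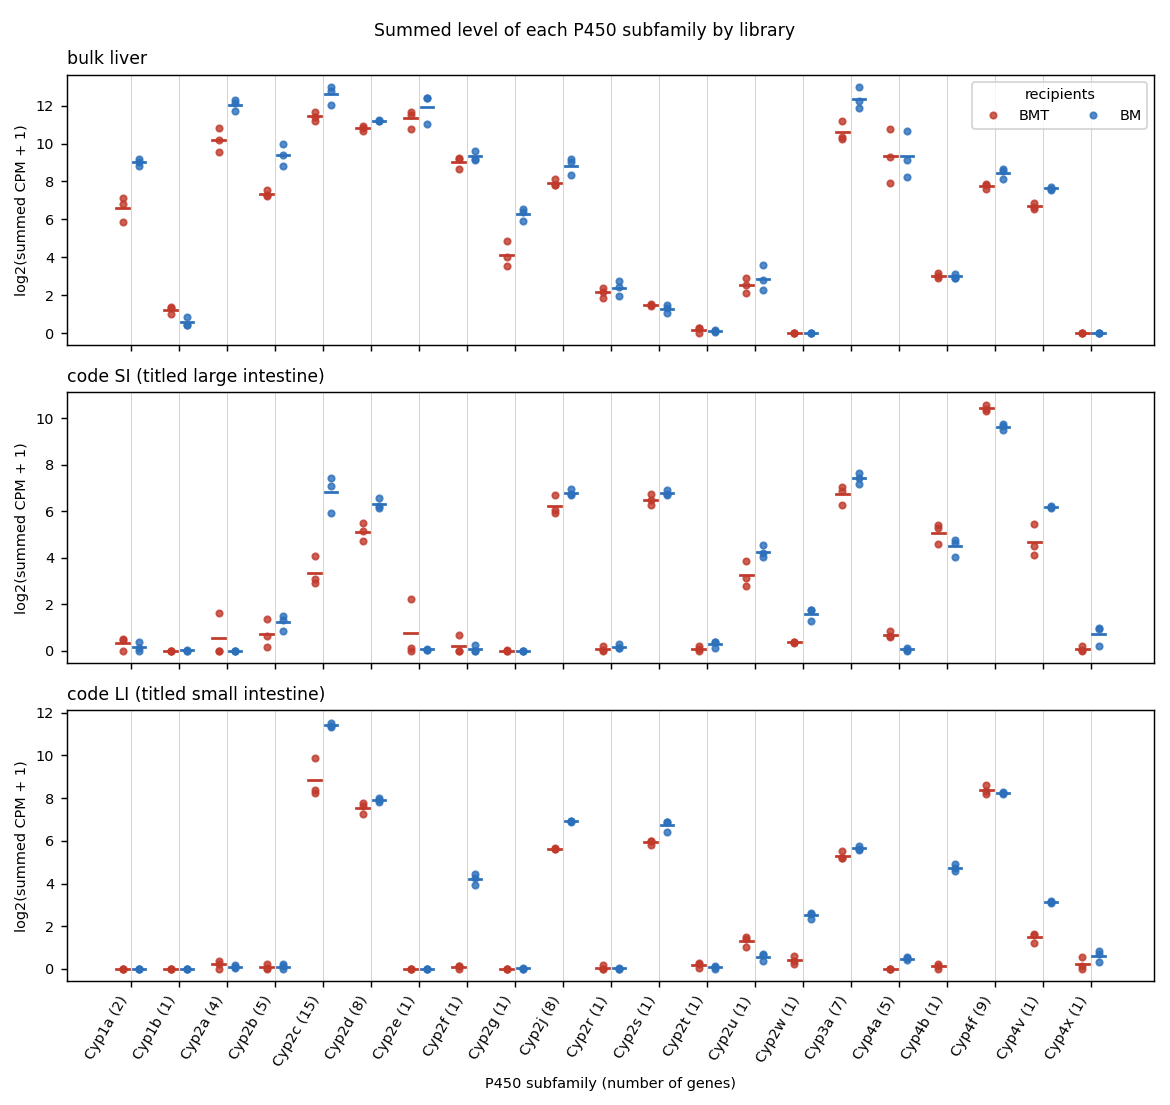
Summed level of each P450 subfamily in each library, as log2(summed CPM + 1), for bulk liver, code SI and code LI. Red points are BMT libraries and blue points BM libraries (3 each), horizontal marks are their means on that scale, and the number of genes per subfamily stands in brackets. In liver the BMT points of Cyp1a, Cyp2a, Cyp2b, Cyp2c and Cyp3a lie below all BM points, in code SI those of Cyp4f lie above, and in code LI the BMT points of Cyp2f and Cyp4b lie near 0.

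In liver the main drug-metabolising subfamilies were lower in BMT recipients. Summed Cyp2c transcripts measured 2794 ± 483 CPM in BMT livers and 6482 ± 2024 CPM in BM livers (SD, n = 3 each). Summed Cyp3a measured 1635 ± 629 CPM in BMT livers and 5528 ± 2229 CPM in BM livers, and summed Cyp2a measured 1248 ± 530.3 CPM in BMT livers and 4285 ± 863 CPM in BM livers. The mean sums were 2.32-fold lower for Cyp2c, 3.38-fold for Cyp3a, 3.43-fold for Cyp2a, 4.35-fold for Cyp2b and 5.07-fold for Cyp1a. The sum of Cyp2d was 1788 ± 149 CPM in BMT livers and 2375 ± 26 CPM in BM livers, 1.33-fold lower. These sums are plain CPM, and the scaling used in the gene tests (trimmed mean of M-values, TMM) set each liver log2 fold change 0.18 higher than plain CPM does, with shifts of 0.05 in code SI and 0.01 in code LI. The sums carry no test.

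Gene by gene, 56 of the 75 were expressed enough to be tested in liver, and 18 were lower and 2 higher in BMT livers by the quasi-likelihood test of edgeR, with Benjamini-Hochberg adjustment over all genes. Log2 fold changes are given ± standard error. Over all 14134 genes tested, 3.35% were lower and 7.46% higher, so the share lower among these P450 genes, 32.1%, lay above that background and the share higher, 3.57%, below it. The median log2 fold change was -0.63 over the 56 genes and -0.02 over all genes, and 47 of the 56 values were negative. The 19 genes not tested averaged at most 0.470 CPM. The filter on low counts also passes a gene expressed in 1 group alone, and the direction of such a gene is set by its entry. Cyp2c55, with 11 counts over the BMT livers, entered through the BM livers, and Cyp4f18 through the BMT livers. Calls came from 8 of 13 tested Cyp2c genes, 2 of 4 Cyp2a, 2 of 3 Cyp2b, 2 of 7 Cyp3a and 1 of 2 Cyp1a, from Cyp2g1, Cyp4v3 and Cyp4f15, and from none of 5 tested Cyp2d, 3 Cyp2j and 4 Cyp4a genes.

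**Figure D2:**
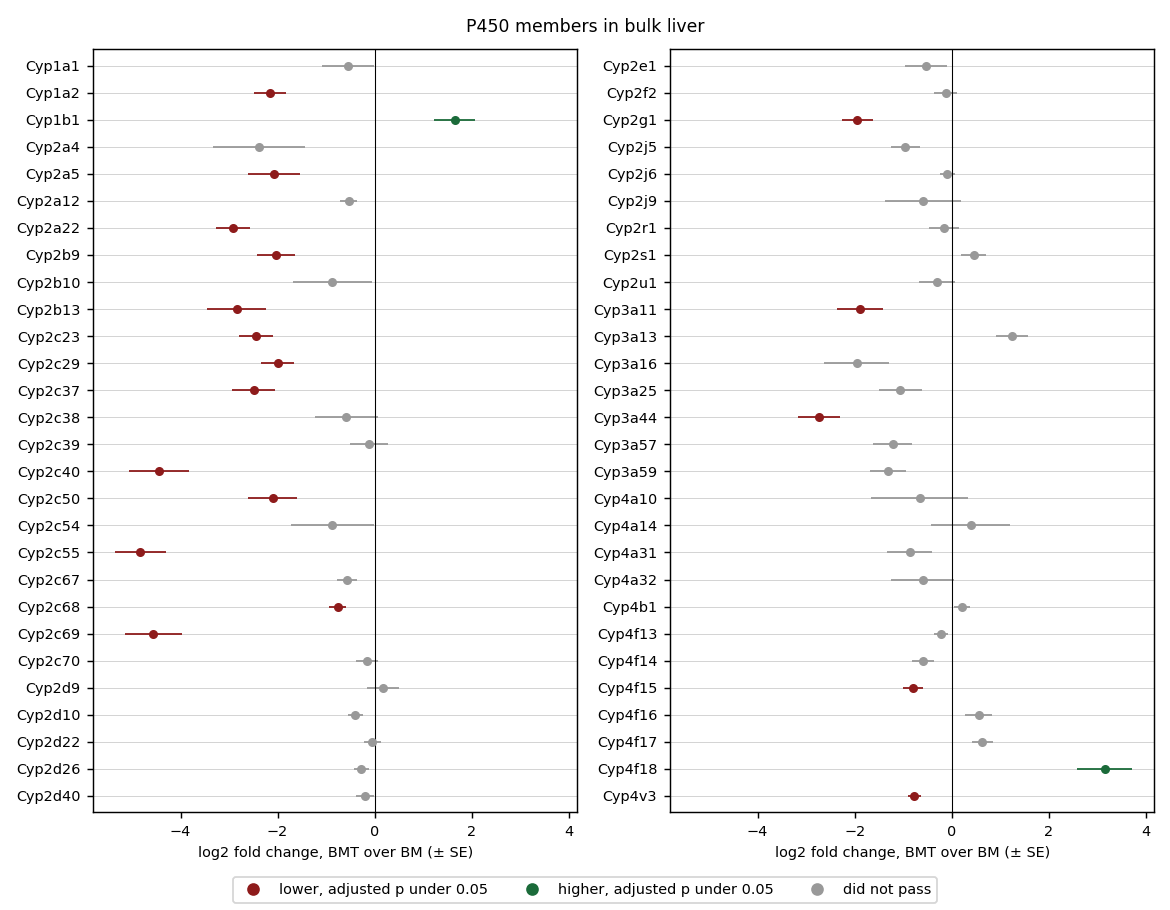
Log2 fold change of BMT over BM in bulk liver for the 56 tested P450 genes, with bars of 1 standard error on each side. Dark red points were lower and green points higher at an adjusted p under 0.05, and grey points did not pass. The longest falls are those of Cyp2c55, Cyp2c69 and Cyp2c40, and the only green points are Cyp1b1 and Cyp4f18.

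Among the targets of Ahr, Cyp1a2, which oxidises caffeine and aromatic amines, measured 135, 56.1 and 112 CPM in BMT livers, against 446, 581 and 522 CPM in BM livers. All BMT livers lay below all BM livers, and the log2 fold change was -2.17 ± 0.33 (adjusted p = 0.00717). Cyp1a1, the inducible partner of Cyp1a2 that is known mostly outside the liver, was low but above the floor of 3 counts in each liver. It measured 2.28, 0.527 and 0.991 CPM in BMT livers, against 2.35, 2.46 and 1.54 CPM in BM livers. The overlapping groups gave -0.55 ± 0.53 (adjusted p = 0.562). Cyp1b1, an enzyme of oestrogens and polycyclic hydrocarbons known mostly from cells other than hepatocytes, measured 1.47, 1.58 and 1.04 CPM in BMT livers, against 0.769, 0.364 and 0.326 CPM in BM livers. It was higher in each BMT liver at 1.65 ± 0.43 (adjusted p = 0.0481), but lost its call when any library other than BM replicate 1 was left out, with an adjusted p of up to 0.172. In the same livers 3 of 5 endothelial markers were higher (Eng, Pecam1 and Stab2). Kdr and Cdh5 did not pass, at log2 fold changes of -0.37 ± 0.16 and -0.10 ± 0.16. The 5 markers summed to 142 to 196 CPM in BMT and 126 to 159 CPM in BM livers. Their part in the Cyp1b1 value was not tested.

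Cyp2a5, the coumarin hydroxylase, held the second highest level per kilobase of this family in BM livers, with 277 CPM per kilobase in BMT and 1315 in BM livers. It measured 572, 201 and 951 CPM in BMT livers, against 1633, 3428 and 3115 CPM in BM livers, and fell without overlap, at a log2 fold change of -2.07 ± 0.53 (adjusted p = 0.0449). Its neighbour Cyp2a22 measured 16.9, 39.98 and 48.2 CPM in BMT livers, against 350.1, 256 and 273 CPM in BM livers, a change of -2.92 ± 0.35 (adjusted p = 0.00326). Cyp2a4, a steroid hydroxylase gene whose 150 bases before the start match those of Cyp2a5 at 97.3%, had 18.8, 7.45 and 144 CPM in BMT livers, against 431, 312 and 208 CPM in BM livers, and did not pass at -2.38 ± 0.94 (adjusted p = 0.157), with BMT replicate 3 far above the other BMT livers. Cyp2a12, which rehydroxylates secondary bile acids in mice, had 582 CPM in BMT against 949 CPM in BM livers, and did not pass either (log2 fold change -0.54 ± 0.17, adjusted p = 0.0878).

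In Cyp2b the genes known for higher levels in females moved and the textbook Nr1i3 target did not pass. Cyp2b13 measured 4.65, 15.7 and 31.5 CPM in BMT livers, against 197, 114 and 91.3 CPM in BM livers, at -2.85 ± 0.61 (adjusted p = 0.0252). Cyp2b9 measured 65.7, 135 and 136 CPM in BMT livers, against 728, 480.4 and 304 CPM in BM livers, at -2.04 ± 0.39 (adjusted p = 0.0168). Neither pair of groups overlapped. Cyp2b10, the Nr1i3 target, had 77.3, 4.62 and 20.9 CPM in BMT livers, against 82.2, 78.3 and 58 CPM in BM livers. BMT replicate 1 stood at the level of the BM livers and replicate 2 far below, and the change was -0.87 ± 0.81 (adjusted p = 0.544). The start regions of the genes that fell are nearly the same letters. The 150 bases before the start of Cyp2b9 (chr7:26173259-26173408, plus strand) and Cyp2b13 (chr7:26061345-26061494, plus strand), taken from RefSeq on GRCm38.p6 and written from 5′ to 3′ along the gene, were 99.3% identical, and are shown because these neighbours moved in the same direction. In this and the later sequences capitals mark motif matches, and the printed 150 bases of the Cyp2b pair hold none. Matches that lie in the rest of a gene's start region, or reach beyond the printed bases, are not marked.
Cyp2b9: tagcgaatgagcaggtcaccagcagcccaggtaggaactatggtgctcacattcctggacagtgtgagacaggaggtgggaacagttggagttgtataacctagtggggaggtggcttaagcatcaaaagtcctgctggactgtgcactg
Cyp2b13: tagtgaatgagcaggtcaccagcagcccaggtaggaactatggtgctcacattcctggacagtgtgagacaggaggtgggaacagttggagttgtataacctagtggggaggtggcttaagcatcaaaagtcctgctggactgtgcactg

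Cyp2c, which epoxidises and hydroxylates arachidonic acid and many drugs, is the largest subfamily, with 15 genes at chr19:39007019-44029208 of GRCm38. Its falls in liver ran from -0.77 to -4.83 on the log2 scale. Cyp2c29, its most abundant member in BM livers per kilobase (156 CPM per kilobase in BMT and 700.1 in BM livers), measured 611, 391 and 433 CPM in BMT livers, against 2941, 1981 and 1508 CPM in BM livers, with no overlap and a change of -1.99 ± 0.34 (adjusted p = 0.0107). Cyp2c37, an arachidonic acid hydroxylase, measured 174, 146 and 76.3 CPM in BMT livers, against 1092, 936 and 482 CPM in BM livers, at -2.49 ± 0.44 (adjusted p = 0.0123). Cyp2c50 averaged 109.5 ± 59.5 CPM in BMT livers and 535 ± 218 CPM in BM livers, at -2.10 ± 0.51 (adjusted p = 0.038). Cyp2c23, an epoxygenase, averaged 3.92 ± 1.73 CPM in BMT livers and 23.5 ± 6.39 CPM in BM livers (log2 fold change -2.44 ± 0.34, adjusted p = 0.00559). The low member Cyp2c55 measured 0.285, 0.081 and 0.0944 CPM in BMT livers, against 7.24, 3.55 and 4.71 CPM in BM livers. Its BMT levels are near the floor of 3 counts and its change was -4.83 ± 0.52 (adjusted p = 0.00245).

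Other Cyp2c genes did not pass. Cyp2c39 had 989, 1122 and 635 CPM in BMT livers, against 1369.6, 1375 and 603 CPM in BM livers, so the groups overlapped and the change was -0.12 ± 0.39 (adjusted p = 0.87). Cyp2c70, which makes the muricholic acids of mouse bile, had 860.1 CPM in BMT against 1084 CPM in BM livers, with overlapping groups and a change of -0.16 ± 0.23 (adjusted p = 0.708). BM replicate 3 had the lowest Cyp2c sum of the BM livers, in the full set 3302, 2739 and 2341 CPM in BMT livers, against 8159, 7053 and 4234 CPM in BM livers.

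Among Cyp2c genes with closely related start regions, the measured falls in liver ran from small to large. Cyp2c40 measured 3.06, 6.64 and 13.7 CPM in BMT livers, against 239, 223 and 85.6 CPM in BM livers. Cyp2c69 measured 1.22, 1.66 and 1.13 CPM in BMT livers, against 52.4, 40.2 and 12.6 CPM in BM livers. Both were lower in each BMT liver, at -4.44 ± 0.62 (adjusted p = 0.00539) for Cyp2c40 and -4.56 ± 0.58 (adjusted p = 0.00391) for Cyp2c69. Cyp2c68 measured 84.6, 96.9 and 109.9 CPM in BMT livers, against 203, 196 and 155 CPM in BM livers, and fell at -0.77 ± 0.17 (adjusted p = 0.0313). Matched bases were counted as a share of all 150 before the start. The share was 90.0% for Cyp2c68 and Cyp2c69, 78.7% for Cyp2c40 and Cyp2c69, and 72.7% for Cyp2c40 and Cyp2c68. The Cyp2c40 window is shifted against the others, so its end bases have no partner and count as unmatched. Where the Cyp2c40 and Cyp2c69 windows overlap they are nearly the same letters, so the shares do not rank likeness. The sequences are shown so that the changes can be read beside them. Cyp2c40 lies at chr19:39812815-39812964, minus strand, Cyp2c69 at chr19:39886770-39886919, minus strand, and Cyp2c68 at chr19:39741102-39741251, minus strand. Capitals mark an HNF4-type motif (CAAAGTCCA) in all of them, a C/EBP-type motif (TTNNGCAA, on the other strand) that lies whole within the printed bases in Cyp2c69 and a xenobiotic response element (TNGCGTG, on the other strand) in Cyp2c68.
Cyp2c40: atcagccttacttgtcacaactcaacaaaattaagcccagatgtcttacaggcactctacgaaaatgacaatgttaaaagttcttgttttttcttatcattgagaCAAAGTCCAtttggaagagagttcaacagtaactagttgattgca
Cyp2c69: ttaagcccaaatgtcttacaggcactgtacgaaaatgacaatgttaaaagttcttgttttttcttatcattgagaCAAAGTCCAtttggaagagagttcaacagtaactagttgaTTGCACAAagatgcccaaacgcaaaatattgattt
Cyp2c68: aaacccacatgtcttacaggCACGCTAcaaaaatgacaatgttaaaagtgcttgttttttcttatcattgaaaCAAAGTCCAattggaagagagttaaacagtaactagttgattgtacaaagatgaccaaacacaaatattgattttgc
The transcripts themselves are close copies. Of all windows of 100 bases, the read length, in the longest transcript, 44.1% in Cyp2c40, 36.3% in Cyp2c69 and 19.8% in Cyp2c68 also occur in another gene, so the counts of these genes are uncertain. Over the whole family 40 of 75 genes shared at least 1 such window with another gene and none shared 50% or more. Whether the 3 genes differed from each other in their change was not tested.

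Cyp3a11, the main drug-metabolising Cyp3a enzyme of mouse liver and a textbook Nr1i2 target, measured 1333, 612 and 604 CPM in BMT livers, against 5432, 2776 and 2503 CPM in BM livers. Its groups did not overlap and the log2 fold change was -1.89 ± 0.47 (adjusted p = 0.0413). Cyp3a44, a gene known for higher levels in females, measured 20.6, 52.5 and 76.8 CPM in BMT livers, against 477, 326 and 288 CPM in BM livers, and fell at -2.73 ± 0.44 (adjusted p = 0.0087). Cyp3a16, whose start region is 94.0% identical to that of Cyp3a44, had 5.5, 20.5 and 63 CPM in BMT livers, against 106, 134 and 138 CPM in BM livers, and did not pass (log2 fold change -1.96 ± 0.67, adjusted p = 0.111). Cyp3a25 had 562 CPM in BMT against 1319.7 CPM in BM livers, with overlapping groups and a change of -1.06 ± 0.44 (adjusted p = 0.178). Cyp3a13, a member at some distance from the others on chromosome 5, went the other way with 141, 104 and 81.1 CPM in BMT livers, against 53.2, 68.9 and 33.9 CPM in BM livers. Each BMT liver lay above each BM liver, and at 1.24 ± 0.34 (adjusted p = 0.0562) it missed the threshold.

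Cyp2e1, the ethanol and acetaminophen oxidase, was the most abundant member per kilobase in both groups, with 1232 CPM per kilobase in BMT and 1998 in BM livers. It measured 3306, 2919 and 1753 CPM in BMT livers, against 5481, 5335 and 2123 CPM in BM livers. BM replicate 3 lay inside the range of the BMT livers, and the change was -0.53 ± 0.44 (adjusted p = 0.49). Cyp2f2, which activates naphthalene and is known from periportal hepatocytes, had 526 CPM in BMT against 646 CPM in BM livers (log2 fold change -0.12 ± 0.24, adjusted p = 0.787). Cyp2d26 was even within groups, at 817, 872 and 833 CPM in BMT livers, against 1179, 1139 and 1134 CPM in BM livers, and did not pass after scaling (log2 fold change -0.28 ± 0.16, adjusted p = 0.306). Cyp2g1, known best from the olfactory mucosa, averaged 18 ± 9.1 CPM in BMT livers and 77.8 ± 16.8 CPM in BM livers and fell (log2 fold change -1.95 ± 0.32, adjusted p = 0.00905).

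In family 4 the Ppara targets spread widely within groups. Cyp4a14, a fatty acid omega-hydroxylase, measured 578, 1527 and 212 CPM in BMT livers, against 1298, 423 and 232 CPM in BM livers. Cyp4a10, of the same function, measured 32.2, 181 and 8.82 CPM in BMT livers, against 236, 103 and 46.5 CPM in BM livers. The groups overlapped in both genes, with changes of 0.39 ± 0.81 (adjusted p = 0.801) and -0.66 ± 1.00 (adjusted p = 0.719). Cyp4v3, a fatty acid hydroxylase, fell to 94.1, 99.8 and 116 CPM in BMT livers, against 195, 211 and 189 CPM in BM livers (log2 fold change -0.77 ± 0.14, adjusted p = 0.0124). Cyp4f15 averaged 61 ± 7.26 CPM in BMT livers and 119 ± 21.8 CPM in BM livers (log2 fold change -0.80 ± 0.20, adjusted p = 0.045). Cyp4f18, the leukotriene B4 hydroxylase of mouse neutrophils, measured 1.47, 0.567 and 0.944 CPM in BMT livers, against 0.181, 0.0909 and 0.0932 CPM in BM livers. It was higher in BMT at 3.15 ± 0.57 (adjusted p = 0.0131), with levels below the floor of 3 counts in BM replicates 2 and 3. All 8 neutrophil markers were higher in the same BMT livers (summed, 136 to 581 CPM in BMT and 12.96 to 17.8 CPM in BM livers), and their part in the Cyp4f18 value was not tested. Without BM replicate 2 the Cyp4f18 call was lost (adjusted p = 0.0637).

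Most markers of the hepatocyte itself did not pass. Of 10 hepatocyte markers, 1 was lower (Gys2, liver glycogen synthase, log2 fold change -1.07 ± 0.18, adjusted p = 0.011) and none higher, with a median log2 fold change of -0.13. Their summed level was 103720 to 126560 CPM in BMT and 108900.0 to 170170.0 CPM in BM livers. None of 10 pericentral markers and none of 10 periportal markers passed, with medians of -0.18 and 0.27. The pericentral sum was 1725 to 1877 CPM in BMT and 1992 to 3198 CPM in BM livers. No defining marker of these lists was at 0 in liver. The 7 falls that passed whichever library was left out were those of Cyp1a2, Cyp2a22, Cyp2c23, Cyp2c40, Cyp2c55, Cyp2c69 and Cyp2g1. Without BMT replicate 2 the other 11 all lost their call, leaving 7 lower. Without BM replicate 2 the lower genes numbered 10, with Cyp2a5, Cyp2b9, Cyp2b13, Cyp2c50, Cyp2c68, Cyp3a11, Cyp4f15 and Cyp4v3 lost. Calls were also lost without BM replicate 1 (Cyp2c50, Cyp2c68, Cyp3a11 and Cyp4f15), BMT replicate 1 (Cyp2a5, Cyp2b9, Cyp2c68, Cyp4f15 and Cyp4v3) and BMT replicate 3 (Cyp2b9, Cyp2c50, Cyp2c68, Cyp3a11 and Cyp4f15). Among the 4 livers whose column headers name lane L002, 17 were lower and 1 higher.

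In code SI, whose libraries carried the small-intestinal markers, Cyp2c and most of Cyp3a were lower in BMT recipients. Summed Cyp4f was higher, and of its 6 tested genes 2 rose, Cyp4f14 and Cyp4f16, while none fell past the threshold. Summed Cyp2c measured 7.64, 6.56 and 16 CPM in BMT code SI libraries, against 171, 137 and 59.98 CPM in BM code SI libraries, a mean 12.2-fold lower. Summed Cyp4f measured 1263, 1361 and 1538 CPM in BMT code SI libraries, against 814, 729.7 and 869 CPM in BM code SI libraries, a ratio of 1.72. Neither pair of groups overlapped. Of 27 genes tested, 14 were lower and 3 higher by the same edgeR test. The background was 11.8% lower and 11.6% higher over 14621 genes, and the shares among the P450 genes were 51.9% and 11.1%. Genes near 0 in BMT entered through the BM libraries, which set their direction. Over the BMT libraries Cyp2c66 had 1 count, Cyp3a59 4 and Cyp2c67 5. The share lower is therefore in part set by entry, and the background passed the same filter. The median log2 fold change was -1.31 over the 27 genes and 0.02 over all genes. The 48 genes not tested averaged at most 0.666 CPM.

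All 5 tested Cyp2c genes fell in code SI, of which Cyp2c66 and Cyp2c67 had entered the test through the BM libraries. Cyp2c65, known from the intestine, measured 3.71, 3.95 and 3.51 CPM in BMT code SI libraries, against 53.4, 58 and 30.5 CPM in BM code SI libraries. The BMT values were close to each other, with a change of -3.62 ± 0.26 (adjusted p = 9.47e-06). Cyp2c55 measured 2.18, 0.515 and 2.14 CPM in BMT code SI libraries, against 91.5, 54.6 and 12.4 CPM in BM code SI libraries (log2 fold change -5.01 ± 0.71, adjusted p = 0.000562), with a wide spread in BM. Car1, a carbonic anhydrase of the large intestine, had 29.3, 55.8 and 95.6 CPM in the BMT and 559, 314 and 13.2 CPM in the BM libraries of code SI, in the same order among the BM replicates as Cyp2c55. The sum of the 6 large-intestinal markers ran from 32.7 to 100.1 CPM in BMT and from 15.9 to 588 CPM in BM, with Hoxb13 at 0 in each. The part of such transcripts in the Cyp2c55 value was not tested. Cyp2c66 had 1 count in all BMT libraries and 262 in BM libraries, a CPM 269.5-fold lower (95% counting interval 47.9 to 10690.0). Cyp2c68 measured 1.33, 1.67 and 3.26 CPM in BMT code SI libraries, against 19.3, 17.1 and 13.3 CPM in BM code SI libraries (log2 fold change -2.92 ± 0.34, adjusted p = 0.000157).

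Within Cyp3a the code SI epithelium held genes that moved in opposite directions. Cyp3a25 measured 1.11, 0.644 and 3.6 CPM in BMT code SI libraries, against 90.5, 99.1 and 61.5 CPM in BM code SI libraries, a log2 fold change of -5.46 ± 0.50 (adjusted p = 3.13e-05). Cyp3a59, at 0, 0 and 0.171 CPM in BMT against 1.27, 1.9 and 0.614 CPM in BM, fell at -4.21 ± 0.82 (adjusted p = 0.00387). Its 4 counts in BMT all lay in replicate 3, a library that also carried traces of liver transcripts. The size of the Cyp3a59 change is therefore poorly set. Cyp3a11 measured 4.72, 0.215 and 6.51 CPM in BMT code SI libraries, against 40.2, 13.4 and 11.5 CPM in BM code SI libraries (log2 fold change -2.47 ± 0.77, adjusted p = 0.0389), but lost its call without BM replicate 1 or BMT replicate 1, with an adjusted p of up to 0.198. Cyp3a13, the Cyp3a gene best known from the intestine, was instead higher, at 126, 75.9 and 106 CPM in BMT code SI libraries, against 66.2, 58.1 and 67.3 CPM in BM code SI libraries (log2 fold change 0.73 ± 0.19, adjusted p = 0.0192). This call was lost without BM replicate 2, BM replicate 3 or BMT replicate 1 (adjusted p up to 0.089). The start regions of Cyp3a25 (chr5:146009619-146009768, minus strand) and Cyp3a59 (chr5:146079108-146079257, plus strand) are 94.0% identical and are shown because both genes fell in this epithelium. Capitals mark a C/EBP-type motif in Cyp3a25 whose letters are not all present in Cyp3a59.
Cyp3a25: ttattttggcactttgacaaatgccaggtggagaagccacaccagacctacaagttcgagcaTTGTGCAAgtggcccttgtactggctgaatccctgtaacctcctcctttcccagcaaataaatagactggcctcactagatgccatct
Cyp3a59: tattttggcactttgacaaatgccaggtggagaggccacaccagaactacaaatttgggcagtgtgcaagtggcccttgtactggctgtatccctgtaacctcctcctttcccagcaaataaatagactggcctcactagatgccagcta

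**Figure D3:**
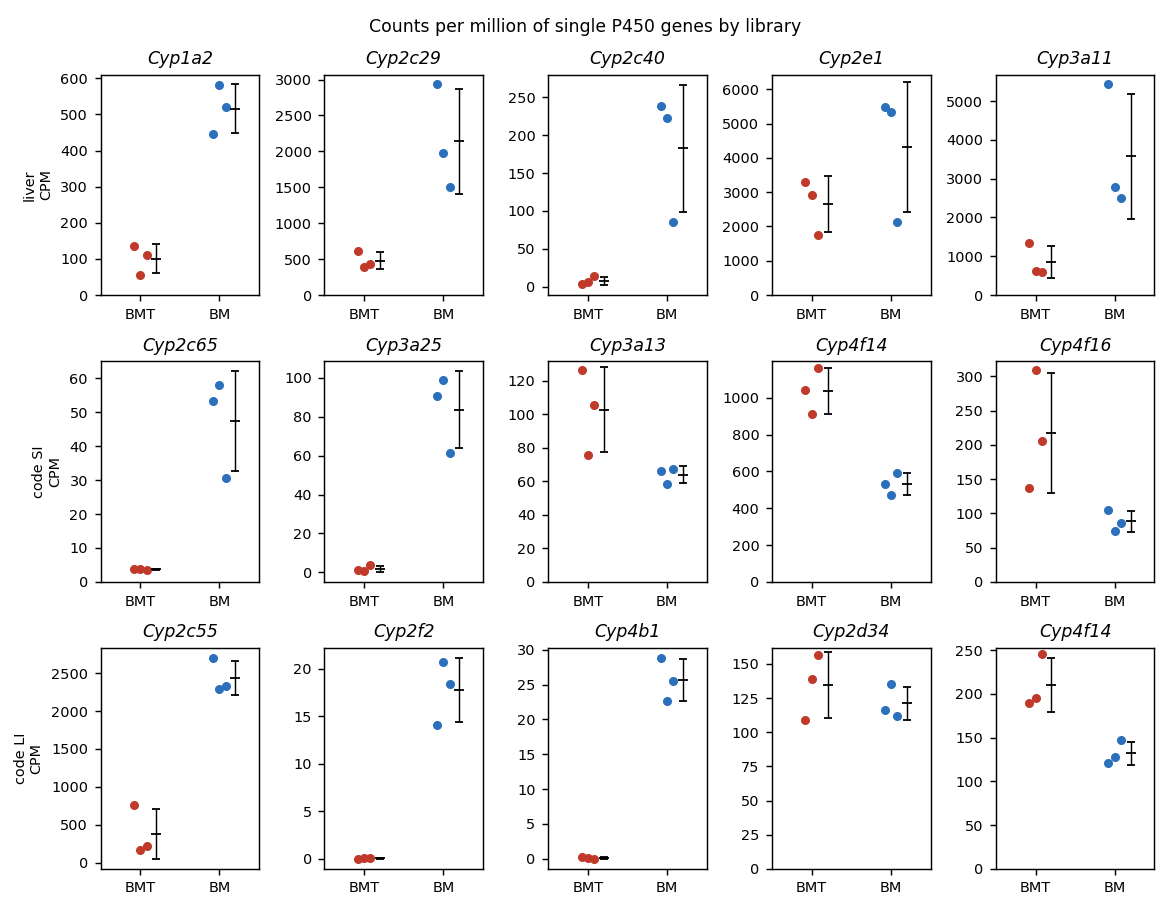
CPM of single P450 genes in each library, for liver (top row), code SI (middle) and code LI (bottom), with BMT on the left and BM on the right of each panel. Points are libraries, and the bar beside them is the mean with 1 SD on each side (n = 3). Groups are apart in each panel except Cyp2e1 in liver and Cyp2d34 in code LI.

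Per kilobase, Cyp4f14, Cyp4f16 and Cyp4f40 had the highest levels of the family in the BMT libraries of code SI. Cyp4f14, a leukotriene B4 hydroxylase gene (432 CPM per kilobase in BMT, 221 in BM), measured 1043, 911 and 1159.9 CPM in BMT code SI libraries, against 529, 473 and 592 CPM in BM code SI libraries. It was higher without overlap, at 1.02 ± 0.18 (adjusted p = 0.00192). Its neighbour Cyp4f16 measured 137, 310.0 and 205 CPM in BMT code SI libraries, against 105, 74.3 and 85.9 CPM in BM code SI libraries (log2 fold change 1.34 ± 0.27, adjusted p = 0.00448). The same subfamily held genes that did not pass, among them Cyp4f40 (53.1, 99.2 and 122 CPM in BMT code SI libraries, against 133, 139.9 and 148 CPM in BM code SI libraries, log2 fold change -0.55 ± 0.26, adjusted p = 0.149) and Cyp4f13 (log2 fold change -0.07 ± 0.21, adjusted p = 0.855). Cyp4v3 fell, with 22.2, 16.3 and 43.2 CPM in BMT code SI libraries, against 70.9, 73.7 and 71.6 CPM in BM code SI libraries (log2 fold change -1.34 ± 0.31, adjusted p = 0.01).

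Of the remaining genes of code SI, Cyp2d26 averaged 26.1 ± 8.19 CPM in BMT code SI libraries and 67.2 ± 9.02 CPM in BM code SI libraries (log2 fold change -1.31 ± 0.24, adjusted p = 0.00303). Cyp2w1, an enzyme known from the gut and from colorectal tumours, was low and fell, at 0.292 CPM in BMT against 2.09 CPM in BM (log2 fold change -2.76 ± 0.38, adjusted p = 0.000497). Cyp2j6, an epoxygenase of the small intestine, and Cyp2s1, a P450 of epithelia, did not pass at -0.45 ± 0.22 (adjusted p = 0.16) and -0.24 ± 0.15 (adjusted p = 0.298). Cyp2b10, at 0.584, 0.129 and 0.9 CPM in BMT and 1.82, 0.814 and 1.53 CPM in BM, did not pass (log2 fold change -1.31 ± 0.56, adjusted p = 0.121). Cyp1a1, Cyp1a2, Cyp1b1, Cyp2f2, Cyp4a10 and Cyp4a14 were too low to test, and the highest of their group means was 0.2 CPM (Cyp2f2, BMT). Of the 7 epithelial markers 2 were higher and none lower in code SI (summed, 15408 to 16639 CPM in BMT and 11993 to 13363 CPM in BM). Of the 8 small-intestinal markers 2 were higher (Apoa4 and Sis) and 3 lower (Defa24, Fabp6 and Lyz1). The 8 summed to 5603 to 9891 CPM in BMT and 17492 to 24286 CPM in BM. The part of such shifts was not tested. The remaining falls of code SI, those of Cyp2c67, Cyp2j9, Cyp2u1 and Cyp3a44, had log2 fold changes of -4.19 ± 0.64, -2.39 ± 0.56, -0.95 ± 0.30 and -3.01 ± 0.80. Cyp2j9 lost its call without BMT replicate 2, and Cyp3a44 without replicate 1 of either group or replicate 2 of BMT. BMT replicate 3 carried traces of liver transcripts: Alb, the albumin gene, had 0.318, 1.16 and 94.8 CPM in the BMT and 0.0909, 0.0452 and 0 CPM in the BM libraries. Cyp2e1 had 0, 0.0858 and 3.77 CPM in the BMT and 0.0455, 0.0452 and 0.0511 CPM in the BM libraries. Without the filter on low counts 13 P450 genes were called higher in code SI, and 3 when that library was left out as well, an alternative chosen after the data were seen. Within lane L002, 11 genes were lower and 4 higher.

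In code LI, whose libraries carried the large-intestinal markers, most of the family was lower in BMT recipients. Of 27 genes tested, 20 were lower and 2 higher by the same edgeR test. The background was 21% lower and 20.4% higher over 14880 genes, and the shares among the P450 genes were 74.1% and 7.41%. Here too some genes entered through the BM libraries, which set their direction. Over the BMT libraries Cyp2f2 and Cyp2c67 had 4 counts each, Cyp4b1 6 and Cyp2c69 16. The share lower is therefore in part set by entry. The median log2 fold change was -1.40 over the 27 genes and 0.00 over all genes. All 6 tested Cyp2c genes fell, as did 3 of 6 Cyp2d, 2 of 2 Cyp2j and 4 of 6 Cyp4f genes, while the single tested Cyp3a gene, Cyp3a13, did not pass (log2 fold change -0.33 ± 0.14, adjusted p = 0.0779). The 48 genes not tested averaged at most 0.364 CPM.

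**Figure D4:**
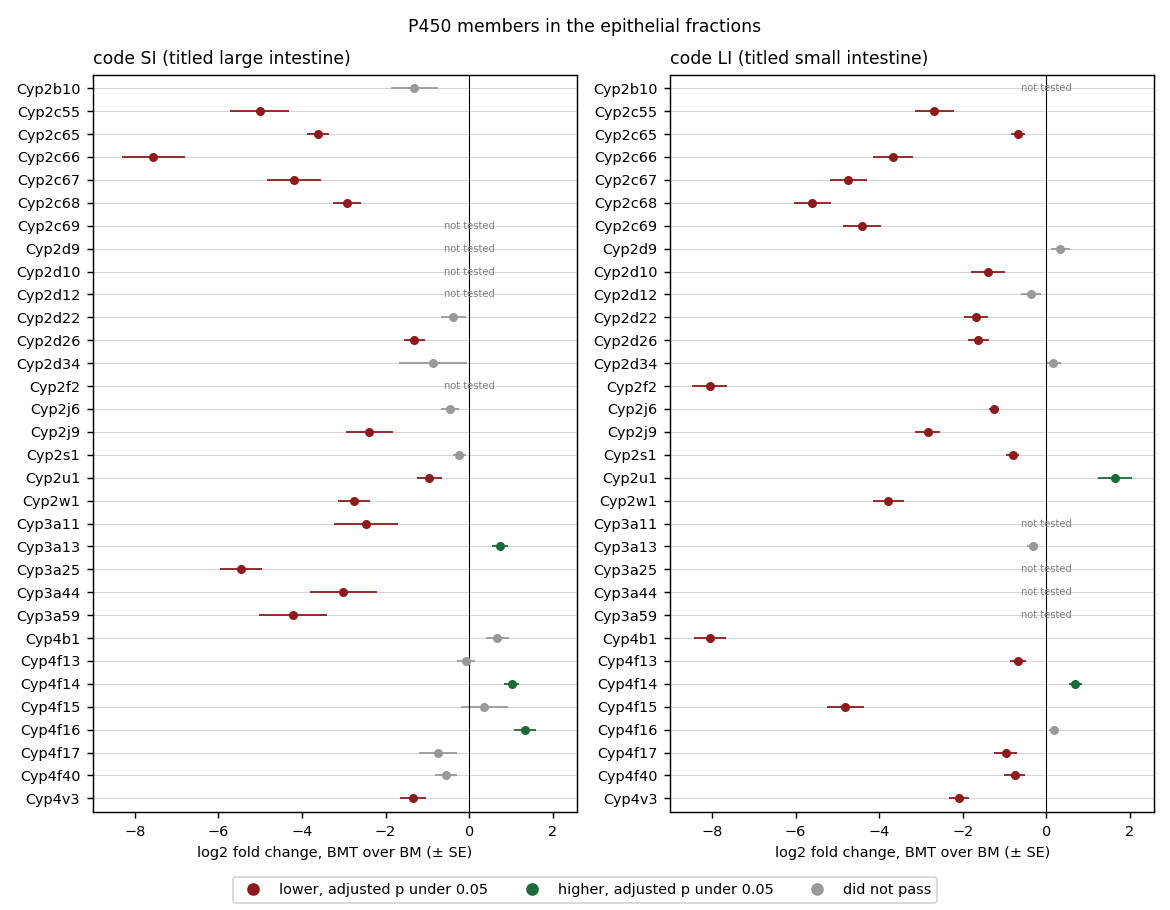
Log2 fold change of BMT over BM in code SI (left) and code LI (right) for each P450 gene tested in at least one of them, with bars of 1 standard error on each side. Dark red points were lower and green points higher at an adjusted p under 0.05, grey points did not pass, and genes too low to test are marked. Cyp2f2 and Cyp4b1 lie near -8 in code LI, and Cyp4f14 lies right of 0 in both.

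The highest level per kilobase in code LI was that of Cyp2c55, which makes hydroxylated arachidonic acid and is known from the colon. It measured 763, 160.5 and 221 CPM in BMT code LI libraries, against 2698, 2293 and 2327 CPM in BM code LI libraries, or 191 CPM per kilobase in BMT and 1223 in BM. BMT replicate 1 had the highest of the BMT values but still lay below each BM library, and the change was -2.68 ± 0.48 (adjusted p = 0.00125). With 1 library left out at a time it ran from -3.63 to -2.28. Cyp2c65, second in this subfamily by level per kilobase, fell as well, at 182, 133 and 112 CPM in BMT code LI libraries, against 222, 238 and 226 CPM in BM code LI libraries (log2 fold change -0.68 ± 0.16, adjusted p = 0.00642). The rarer Cyp2c68, Cyp2c67, Cyp2c69 and Cyp2c66 fell, with log2 fold changes of -5.60 ± 0.44, -4.74 ± 0.44, -4.41 ± 0.46 and -3.66 ± 0.48. Of these, Cyp2c68 measured 0.268, 1.48 and 1 CPM in BMT code LI libraries, against 27.9, 56.4 and 50.3 CPM in BM code LI libraries.

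The longest falls in code LI were those of Cyp2f2 and Cyp4b1. Cyp2f2, the naphthalene oxidase known from lung club cells, measured 0, 0.0898 and 0.0954 CPM in BMT code LI libraries, against 14.1, 20.7 and 18.4 CPM in BM code LI libraries. Cyp4b1, which activates the lung toxin ipomeanol, measured 0.179, 0.0898 and 0 CPM in BMT code LI libraries, against 28.8, 22.7 and 25.5 CPM in BM code LI libraries. Each BMT library was at 0 or at a few counts, the groups did not overlap, and the changes were -8.05 ± 0.42 (adjusted p = 3.05e-07) and -8.04 ± 0.38 (adjusted p = 1.84e-07). Their levels in BMT are under or near the floor of 3 counts, so the size of these changes is poorly set. The same holds for Cyp4f15, given next, whose BMT values are at or under that floor. Cyp4f15 (0.106 CPM in BMT against 3.17 CPM in BM, log2 fold change -4.81 ± 0.45, adjusted p = 1.71e-05), Cyp2w1 (0.339 CPM in BMT against 4.75 CPM in BM, log2 fold change -3.79 ± 0.37, adjusted p = 2.26e-05) and Cyp2j9 (0.44 CPM in BMT against 3.19 CPM in BM, log2 fold change -2.84 ± 0.30, adjusted p = 3.8e-05) followed.

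Several more abundant genes of code LI also fell. Cyp2j6 measured 46.9, 47.9 and 49.9 CPM in BMT code LI libraries, against 115, 117 and 118 CPM in BM code LI libraries, with little spread in either group (log2 fold change -1.26 ± 0.12, adjusted p = 2.01e-05). Cyp2s1 measured 63.4, 54.2 and 61.7 CPM in BMT code LI libraries, against 119, 115 and 82.9 CPM in BM code LI libraries (log2 fold change -0.81 ± 0.16, adjusted p = 0.00257). Cyp2d26 averaged 20.2 ± 7.72 CPM in BMT code LI libraries and 63.2 ± 0.388 CPM in BM code LI libraries (log2 fold change -1.63 ± 0.25, adjusted p = 0.000538). Cyp2d34, the Cyp2d gene with the highest level per kilobase in this epithelium, had 109, 139 and 157 CPM in BMT code LI libraries, against 116, 135 and 112 CPM in BM code LI libraries, with overlapping groups (log2 fold change 0.17 ± 0.17, adjusted p = 0.454). Cyp4f14 was higher, at 189.5, 195 and 246 CPM in BMT code LI libraries, against 121, 128 and 147 CPM in BM code LI libraries (log2 fold change 0.69 ± 0.16, adjusted p = 0.00603). So was Cyp2u1, a fatty acid hydroxylase, at 1.03, 1.62 and 1.86 CPM in BMT code LI libraries, against 0.56, 0.629 and 0.273 CPM in BM code LI libraries (log2 fold change 1.65 ± 0.41, adjusted p = 0.00863). Cyp4f16 averaged 52.8 ± 3.76 CPM in BMT code LI libraries and 47 ± 1.41 CPM in BM code LI libraries and did not pass (log2 fold change 0.18 ± 0.12, adjusted p = 0.274). Cyp1a1, Cyp1a2, Cyp1b1, Cyp2e1 and Cyp4a14 had no count in any of the 6 libraries of code LI, and Cyp2b10 and Cyp3a11 were too low to test. Cyp4f40 fell at -0.76 ± 0.26 (adjusted p = 0.0359) but lost its call without any library other than BMT replicate 3 (adjusted p up to 0.12). The remaining falls, those of Cyp4v3, Cyp2d22, Cyp2d10, Cyp4f17 and Cyp4f13, had log2 fold changes of -2.10 ± 0.24, -1.68 ± 0.28, -1.40 ± 0.41, -0.98 ± 0.28 and -0.68 ± 0.18. Of these, Cyp2d10 and Cyp4f17 lost their call without BM replicate 1, BM replicate 2 or BMT replicate 2, and Cyp4f13 without BMT replicate 2. Of the 7 epithelial markers, 4 were higher (Krt8, Krt18, Krt20 and Vil1) and 1 lower (Cdx2), with a summed level of 15418 to 18874 CPM in BMT and 11400.0 to 12866 CPM in BM. Of 6 large-intestinal markers 4 were lower (summed, 5240.2 to 8384 CPM in BMT and 12247 to 13432 CPM in BM). The part of such shifts among epithelial cells was not tested. Within lane L002, 20 genes were lower and 3 higher.

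Whether BMT effects differed from tissue to tissue was tested in 1 edgeR model over the 18 libraries, with mouse number as a block. The results are given for the genes tested in both tissues, a condition set after the data were seen, and then for every P450 gene fitted. Between liver and code SI, 4 of 22 genes had a higher and 1 a lower value in liver, against 10.0% and 8.19% of the 12358 genes tested in both. Over all 64 P450 genes fitted, 5 were higher and 7 lower, against 8.67% and 6.32% of 17275 genes. The additional gene on the higher side was Cyp4f18. On the lower side they were Cyp2a4, Cyp2a5, Cyp2b9, Cyp2c23, Cyp2c29 and Cyp2c40, and all of these genes were too low to test in code SI. In the BMT libraries of code SI, every count of Cyp2a4, Cyp2a5, Cyp2b9, Cyp2c29 and Cyp2c40 lay in replicate 3, the library with liver transcripts. The part of that library in the calls of these genes was not tested. Among the genes tested in both, 10 were higher without mouse 10, whose code SI library carried liver transcripts. Cyp3a25 and Cyp2c67, with falls past the threshold in code SI and not in liver, differed by 4.60 ± 0.68 (adjusted p = 0.000874) and 3.63 ± 0.50 (adjusted p = 0.000294) in log2 fold change, liver minus code SI. Cyp4f14 differed by -1.59 ± 0.30 (adjusted p = 0.00288), with a log2 fold change of -0.60 in liver and 1.02 in code SI. Between liver and code LI, 12 of 21 genes were higher and 2 lower, against 12.6% and 10.2% of the 12459 genes tested in both. Over all P450 genes fitted 13 were higher, with Cyp4a10, and 3 lower, with Cyp2c23, against 10.6% and 8.13% of all genes. Cyp4b1 and Cyp2f2 led here, at 8.29 ± 0.51 (adjusted p = 7.44e-07) and 7.97 ± 0.83 (adjusted p = 1.91e-05), with liver values of 0.21 and -0.12. They had 6 and 4 counts over the BMT libraries of code LI, so the sizes and order of these differences are poorly set. Of the genes tested in both, those lower in liver than in code LI were Cyp2u1 and Cyp4f14.

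Between the epithelia, 4 of 22 genes had a higher and 3 a lower BMT effect in code SI than in code LI, against 2.86% and 2.8% of the 14006 genes tested in both. Over all P450 genes fitted 5 were higher, with Cyp2f2, and 4 lower, with Cyp4f18, against 2.4% and 2.51% of all genes. In code SI, Cyp2f2 had 4 counts in BM and 14 in BMT libraries, the latter all in replicate 3, the library with liver transcripts. The part of that library in the Cyp2f2 value was not tested. Cyp4b1 differed by 8.73 ± 0.50 (adjusted p = 5.29e-07). In code SI it measured 37.8, 23.1 and 41.4 CPM in BMT code SI libraries, against 26.7, 15.7 and 24 CPM in BM code SI libraries, and did not pass (log2 fold change 0.67 ± 0.27, adjusted p = 0.0951). Cyp4f15, Cyp2c68 and Cyp2d22 were the others tested in both with a higher value in code SI, at 5.13 ± 0.63, 2.69 ± 0.54 and 1.40 ± 0.37. The BMT levels of Cyp4f15 in code LI, at or under the floor of 3 counts, leave the size of its difference poorly set. The same holds for Cyp4b1, with 6 counts over those libraries. Cyp2c65, Cyp2c66 and Cyp2u1 had lower values, at -2.83 ± 0.30, -3.80 ± 0.90 and -2.62 ± 0.50, and Cyp2u1 had opposite signs, -0.95 in code SI and 1.65 in code LI. The Cyp2u1 call in code SI was lost without any single library other than BMT replicate 3. Cyp2c66 had 1 count over the BMT libraries of code SI, so the size of its difference is poorly set as well.

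The epithelia also differed within each group of recipients, compared as code SI over code LI with mouse number as a block. In BMT recipients, 10 of 22 tested genes were higher and 7 lower in code SI, against 8.82% and 13.1% of all genes. In BM recipients 11 of 33 were higher and 14 lower, against 18.8% and 22.3%. Some genes passed the filter through 1 epithelium alone, which set their direction. In BM recipients these included Cyp3a11, Cyp3a59, Cyp2f2 and Cyp2c69, and in BMT recipients Cyp4b1, Cyp3a25, Cyp2d12 and Cyp2d9. The counts stand beside the background as description only. In BM recipients the genes with the largest fitted excess in code SI included Cyp3a11 (9.18 ± 0.38 on the log2 scale), Cyp3a25 (8.12 ± 0.24) and Cyp3a59 (5.86 ± 0.76). Those with the largest fitted excess in code LI included Cyp2f2 (-8.04 ± 0.43), Cyp2c69 (-7.97 ± 0.54), Cyp2d34 (-7.66 ± 0.28) and Cyp2c55 (-5.91 ± 0.39). Some of these values rest on a few counts on one side. Over the 3 BM libraries of code LI, Cyp3a11 had 2 counts and Cyp3a59 1, and over those of code SI, Cyp2f2 had 4 and Cyp2c69 1. Their sizes depend on the fit, and their order among the genes is not set. In BMT recipients Cyp4b1 (8.47 ± 0.44), Cyp3a25 (8.24 ± 0.96) and Cyp4v3 (3.84 ± 0.30) led in code SI, and Cyp2d34 (-8.68 ± 0.39), Cyp2c55 (-7.71 ± 0.34), Cyp2d12 (-6.87 ± 0.42) and Cyp2d9 (-6.55 ± 0.49) in code LI. The BMT libraries held 6 counts of Cyp4b1 in code LI, and 6 of Cyp2d12 and 7 of Cyp2d9 in code SI. Cyp3a11 was not tested in BMT recipients, where it had 4.72, 0.215 and 6.51 CPM in code SI and 0.0447, 0 and 0 CPM in code LI, nor was Cyp2f2, which had 0, 0 and 0.6 CPM in code SI and 0, 0.0898 and 0.0954 CPM in code LI. Cyp3a25 had no count in the BMT libraries of code LI and 3.6 CPM in BMT replicate 3 of code SI, the library with 94.8 CPM of Alb, so its value depends on the fit and the part of that library in it was not tested.

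Receptors, factors, electron donors and haem enzymes that serve these P450s were read as a list chosen from textbook knowledge. Of 25 such genes 24 were tested in each tissue. In liver none was higher and 5 were lower, or 20.8% lower where 3.35% of all genes were lower and 7.46% higher, with a median of -0.27. Among them were the haem synthesis enzyme Alad (log2 fold change -0.92 ± 0.21, adjusted p = 0.0313), the reductase Cyb5r3 (-0.58), the haem-binding partner Pgrmc1 (-0.78) and the oxidative stress factor Nfe2l2 (-0.63). Red cell precursors also make haem, and 4 of 5 tested erythroid markers were lower in the same BMT livers (summed, 9.21 to 34.7 CPM in BMT and 83.7 to 113 CPM in BM livers). Their part in the Alad value was not tested. The receptors did not pass there. Ppara, the receptor named above for Cyp4a, measured 21.5, 32.3 and 32.6 CPM in BMT livers, against 59.5, 56 and 43.1 CPM in BM livers, with no overlap between the groups, and missed the threshold (log2 fold change -0.72 ± 0.20, adjusted p = 0.0636). Nr1i2 averaged 88.8 ± 10.6 CPM in BMT livers and 119.9 ± 14.5 CPM in BM livers (log2 fold change -0.26 ± 0.14, adjusted p = 0.298). Nr1i3 averaged 62.6 CPM in BMT against 55.9 CPM in BM (log2 fold change 0.34 ± 0.19, adjusted p = 0.299), and Ahr 24.2 CPM in BMT against 37.3 CPM in BM (log2 fold change -0.46 ± 0.22, adjusted p = 0.228). Por had 516 CPM in BMT against 401 CPM in BM (log2 fold change 0.54 ± 0.24, adjusted p = 0.202).

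In code SI, 2 of these genes were higher, Hmox1, which degrades haem (log2 fold change 1.66 ± 0.31, adjusted p = 0.00316), and Por (log2 fold change 0.59 ± 0.15, adjusted p = 0.0169). Another 4 were lower, the factors Foxa2 (-0.98), Cebpa (-0.51) and Cebpb (-1.08) and the electron donor Cyb5a (-0.71), with a median of -0.07. The shares, 8.33% higher and 16.7% lower, were near the 11.6% and 11.8% of all genes. In code LI, Hmox1 was higher (log2 fold change 1.66 ± 0.19, adjusted p = 6.98e-05) and 9 genes were lower, with a median of -0.31, shares of 4.17% and 37.5% against 20.4% and 21% of all genes. These were the receptors Ppara (log2 fold change -1.60 ± 0.24, adjusted p = 0.000391), Nr1i3 (-1.45, at 0.516 CPM in BMT against 1.43 CPM in BM) and Nr1i2 (-0.38), the factors Foxa2 (-1.25) and Nfe2l2 (-1.08), Cyb5a (-1.04), Cyb5b (-0.40) and Pgrmc1 (-1.09), and the last enzyme of haem synthesis, Fech (-0.49).

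A RefSeq window from 250 bases before to 50 after the start was found for 62 of the 75 genes. The 13 without one were Cyp2c23, Cyp2c54, Cyp2d12, Cyp2d22, Cyp2d34, Cyp2g1, Cyp2j7, Cyp2u1, Cyp4a10, Cyp4a14, Cyp4a31, Cyp4f17 and Cyp4x1. Motifs were searched by their letters on both strands, as a description of these windows only. The HNF4-type letters CAAAGTCCA, added after the windows had been read, occurred in 8 of 62 genes (12.9%) and in 0.475% of all 32851 windows. The genes were Cyp2c40, Cyp2c65, Cyp2c67, Cyp2c68, Cyp2c69, Cyp2c70, Cyp3a11 and Cyp3a16. The C/EBP-type letters TTNNGCAA occurred in 15 genes (24.2%) and in 10.8% of all windows. The genes were Cyp2a4, Cyp2a5, Cyp2b9, Cyp2b10, Cyp2b13, Cyp2b19, Cyp2b23, Cyp2c37, Cyp2c40, Cyp2c67, Cyp2c69, Cyp2j8, Cyp2j9, Cyp3a25 and Cyp4f14. In Cyp2b9, Cyp2b13 and Cyp2c40 the match is not whole within the 150 bases printed above. A direct repeat of AGNTCA with any 1 base between the copies occurred in Cyp3a25, Cyp3a57 and Cyp3a59 (4.84%) and in 0.219% of all windows. The xenobiotic response element TNGCGTG occurred in 1 gene, Cyp2c68 (1.61%), and in 5.06% of all windows. The STAT-type palindrome TTCNNNGAA occurred in 4 genes (6.45%) and in 8.30%. Members with near-identical windows are not independent of each other.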

How the data were processed

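RNA-seq counts of 18 libraries were analysed. Per the labels' protocols the libraries came from a stranded poly(A) kit, and per the submitters' processing notes the build was GRCm38.p5 and the tools were STAR 2.7.0e, featureCounts 1.6.3 and FastQC 0.11.9. The annotation release, the strand setting and the treatment of reads with several matches are not stated in the sources used here. The deposited values are raw whole-number counts for 53379 gene IDs. Counts are not corrected for gene length, so levels were compared between genes as CPM per kilobase of the gene length in the deposited table.

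Gene IDs were named through GENCODE release M21 (53274 matched, and the rest held 0.002569% of counts). Each tissue was fitted by itself (3 BMT against 3 BM libraries) with edgeR 4.0.16 in R 4.3.3: filterByExpr, TMM scaling, the quasi-likelihood test and Benjamini-Hochberg adjustment over all tested genes, with a threshold of 0.05. Differences between tissues used 1 model over all 18 libraries, and code SI over code LI a model within each group of recipients. Both had mouse number as a block, since the descriptions give the same number to libraries of different tissues, read here as 1 mouse. Deviations of libraries with the same number correlated at -0.164 to 0.31 between tissues, so the pairing rests on that reading of the descriptions alone. Log2 fold changes carry their standard error. Named per tissue were the 10 members with the highest mean CPM, the 8 largest called falls and rises among genes averaging 1 CPM or more, and textbook targets or zonated enzymes (Cyp1a1, Cyp1a2, Cyp1b1, Cyp2b10, Cyp2e1, Cyp2f2, Cyp3a11, Cyp3a13, Cyp4a10, Cyp4a14). Per difference between tissues the 4 called members with the smallest p in each direction, and per comparison of the epithelia the 5 with the largest change, were taken. Other members were chosen after their values were seen. The members and all lists were chosen with earlier results of these data known.

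Alternatives were DESeq2 1.42.0, other scalings, no filter, lane L002 alone, the title number as a block and each library left out. No libraries were alike enough to be duplicates: the chi-square per degree of freedom between replicates was 9.86 to 187.3. Intervals and floors of 3 counts cover counting error only. Start regions came from RefSeq tables on GRCm38.p6. A gene of the lists is not reported here.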

Additional observations from a re-analysis of the deposited data

Results flagged for a closer look

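A difference of the BMT effect between tissues, by an edgeR test of the difference itself, marked the following genes, up to 4 in each direction with the smallest p among those tested in both tissues. For liver minus code SI the differences in log2 fold change were 3.63 for Cyp2c67, 4.60 for Cyp3a25, 2.25 for Cyp2c68, 2.84 for Cyp3a59 and -1.59 for Cyp4f14 (adjusted p from 0.000294 to 0.0262). In the liver Cyp2c67 had 31.4 CPM in BMT against 52.2 CPM in BM livers and Cyp3a59 34.2 CPM in BMT against 95.4 CPM in BM livers, and neither passed there (0.12 and 0.0639 as adjusted p). Over the BMT libraries of code SI, Cyp2c67 had 5 counts and Cyp3a59 4, so the sizes of their differences are poorly set.

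For liver minus code LI the differences were 8.29 for Cyp4b1, 7.97 for Cyp2f2, 4.94 for Cyp2c68, 4.20 for Cyp2c67, -1.22 for Cyp4f14 and -1.84 for Cyp2u1 (adjusted p from 7.44e-07 to 0.0216). Over the BMT libraries of code LI, Cyp4b1 had 6 counts, Cyp2f2 4 and Cyp2c67 4, so the sizes of their differences are poorly set. In liver Cyp4b1 measured 6.6, 7.86 and 7.08 CPM in BMT livers, against 7.83, 6.64 and 6.48 CPM in BM livers and Cyp2u1 averaged 4.87 CPM in BMT against 6.87 CPM in BM livers.

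For code SI minus code LI they were 8.73 for Cyp4b1, 5.13 for Cyp4f15, 2.69 for Cyp2c68, 1.40 for Cyp2d22, -2.83 for Cyp2c65, -2.62 for Cyp2u1 and -3.80 for Cyp2c66 (adjusted p from 5.29e-07 to 0.0458). Cyp4f15 measured 0.955, 0.172 and 0.729 CPM in BMT code SI libraries, against 0.455, 0.362 and 0.665 CPM in BM code SI libraries, and 0.134, 0.0898 and 0.0954 CPM in BMT code LI libraries, against 4.18, 3.28 and 2.07 CPM in BM code LI libraries. Cyp2d22 measured 7.75, 6.87 and 9.34 CPM in BMT code SI libraries, against 14.4, 6.47 and 11.3 CPM in BM code SI libraries, and 5.14, 3.73 and 7.96 CPM in BMT code LI libraries, against 22.2, 16.3 and 16.6 CPM in BM code LI libraries. The sizes for Cyp4b1, with 6 counts in the BMT libraries of code LI, and Cyp2c66, with 1 in those of code SI, are poorly set. Groups of 3 libraries were too small for a test of single outlying libraries.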

How the results depend on the processing

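Of the counts of P450 genes called, 158 values under alternatives lay within 1.5 times the reported count and 16 did not. In liver 1 gene was higher in lane L002 alone, 0 to 3 were higher and 7 to 25 lower with 1 library left out, the largest count without BM replicate 3. Without the filter on low counts 13 genes were higher in code SI, 19 in code SI over code LI in BMT recipients and 7 for code SI minus code LI. With 1 mouse left out, 2 to 4 genes were higher for code SI minus code LI. For liver minus code SI, 3 to 10 were higher (10 without mouse 10) and 1 to 2 lower. For liver minus code LI, 1 to 2 were lower. Counts for differences between tissues cover the genes tested in both.

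No called gene changed sign under the alternatives run. The signs that turned belonged to genes that did not pass in liver: Cyp2c39 (-0.459 to 0.107 with 1 library left out; above 0 at 0.074, 0.052 and 0.107 without BM replicate 1, BM replicate 2 and BMT replicate 3), Cyp2c70 (-0.354 to 0.009, the highest without BMT replicate 2), Cyp4a14 (-0.976 in lane L002 alone; -0.54 without BMT replicate 2 to 1.429 without BM replicate 1; -0.041 without BM replicate 3), Cyp2f2 (-0.28 to 0.071, above 0 without BM or BMT replicate 2) and Cyp4a10 (-2.452 to 0.16, the highest without BM replicate 1), and to Cyp4f13 in code SI (-0.308 to 0.14, above 0 without BM or BMT replicate 1). The cause was not tested. With the title number as a replicate block, 3 were higher and 21 lower in liver, 4 and 15 in code SI, and 2 and 20 in code LI; these numbers join libraries of different mice, and same-numbered deviations correlated at -0.231 to 0.438. With no replicate block the fits across tissues called 4 higher and 1 lower for liver minus code SI, 12 and 2 for liver minus code LI, 3 and 2 for code SI minus code LI, and 8 and 7 in BMT and 11 and 14 in BM recipients for code SI over code LI. In liver, Cyp3a13 passed under upper-quartile scaling, DESeq2, no filter, the block, or without BM replicate 3. Levels under the floor of 3 counts leave the size of a change poorly set.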

Other observations

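Some genes too low for the test differed in their counts, and were chosen after their values were seen. In code LI, Cyp4a10 had 0 counts in BMT and 24 in BM libraries, at least 7.78-fold lower against a floor of 3 counts over the group, and Cyp3a25 had 0 and 19 counts, at least 6.16-fold lower. Cyp4f18, the neutrophil leukotriene B4 hydroxylase, had 40 counts in BMT and 1 in BM libraries of code LI, where 8 neutrophil markers summed to 5.44 to 26.7 CPM in BMT and 0.625 to 1.17 CPM in BM; the part of those cells was not tested. In code SI, Cyp2e1 had 90 counts in BMT and 3 in BM libraries, a ratio of 29.2 (95% counting interval 9.67 to 144), nearly all of them in BMT replicate 3, the library with liver transcripts.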
